A study of Mus musculus with 6 samples.

Results

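The Ifi200 cluster of mouse chromosome 1 runs from Aim2 to Ifi202b and encodes interferon-inducible proteins, most of which bind DNA. It was examined here as the CTCF peaks overlapping a window of 1 Mb, from 173.05 to 174.05 Mb on chromosome 1 (mm39). There were 55 such peaks among the 172581 on chromosomes 1 to 19, X and Y in 6 peak lists. The assay was CUT&RUN: a nuclease tethered to CTCF by an antibody cuts out the DNA next to it, and the released fragments are sequenced. The cells were regulatory T cells of the mouse thymus, from 3 libraries labelled WT and 3 labelled Cgas Knockout (Cgas_KO), whose mice lack the cytosolic DNA sensor cGAS. The question was where CTCF binds with and without cGAS. The labels give no strain, age or treatment, and do not say whether replicates came from separate animals, so the spread between lists may be technical. The lists hold no expression values, so neither the cell type nor the loss of Cgas was checked.

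The window was chosen because a stretch of 100 kb in it was covered more by peaks in the WT lists. Numbers of peaks, coverage, heights and calls by genotype inside it are therefore descriptions, and no test was made of them.

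Most proteins of this family carry a HIN domain that grips DNA, and most a pyrin domain that recruits partner proteins. AIM2 senses DNA in the cytosol and assembles an inflammasome, and the Ifi204 protein binds DNA in nucleus and cytosol and can signal through STING, the adaptor that cGAS also uses. The Ifi202b protein lacks the pyrin domain and can hold AIM2 in check. Mndal and Ifi203 encode further, mainly nuclear, members. CTCF, with its array of zinc fingers, sits on DNA and stops the extrusion of chromatin loops, and tandem gene families often hold several of its sites.

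The RefSeq gene table of GRCm38.p6 placed 17 genes from Aim2 to Ifi202b, of which 12 encode proteins, 4 are pseudogenes and 1 is a tRNA gene. The coding genes were, in order, Aim2, Ifi206, Ifi214, Ifi213, Ifi209, Ifi208, Ifi207, Ifi204, Mndal, Ifi211, Ifi203 and Ifi202b. This build is not that of the peak lists. Gene order was taken from it, no peak was assigned to a gene, and all peak positions are in mm39.

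The family arose by tandem duplication, and its promoters show how alike the copies are in sequence, which matters for placing short reads. RefSeq promoters of GRCm38.p6, from 250 bases before to 50 after a gene's start, were found for 11 of the 12 coding genes, and for 4 of the 5 genes Aim2, Ifi203, Ifi204, Mndal and Ifi202b. Among the 55 pairs of these 11 genes the median identity was 53.6%, and 2 pairs reached 90%. They were Ifi214 with Ifi209, at 95.3%, and Mndal with Ifi203, at 90.7%. The latter pair matched at 282 of 289 aligned bases, with 22 further bases in gaps. The 250 bases before the start of both (minus strand, GRCm38.p6) are shown. The promoters of this pair are the most alike among the 4 of those 5 genes that had one. Capitals mark bases with no identical partner, including an overhang at the left end of Ifi203.
Mndal: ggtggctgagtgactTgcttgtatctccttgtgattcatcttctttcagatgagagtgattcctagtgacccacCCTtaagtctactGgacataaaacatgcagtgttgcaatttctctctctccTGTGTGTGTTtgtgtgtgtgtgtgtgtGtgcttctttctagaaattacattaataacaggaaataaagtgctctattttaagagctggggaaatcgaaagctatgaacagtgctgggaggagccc
Ifi203: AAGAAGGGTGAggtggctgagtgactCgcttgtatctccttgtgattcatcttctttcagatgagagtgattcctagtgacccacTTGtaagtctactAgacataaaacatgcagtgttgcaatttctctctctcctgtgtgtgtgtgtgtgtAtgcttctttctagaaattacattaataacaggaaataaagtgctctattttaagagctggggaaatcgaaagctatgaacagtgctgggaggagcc
Long runs are shared, so a short read from such a run could have come from either gene. The sources used here do not say how reads with several matches were handled.

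The promoters were also searched, on both strands, for 4 short letter patterns taken from the common CTCF motif. AGGGGGCG and AGNNGGCGC were in 0 of the 13 promoters listed for the cluster, against 6.07% and 7.23% of all 32851 promoters. CCACNAG was in those of Aim2, Ifi207 and Ifi211, and in 15.3% of all promoters. CCACTAG, a special case of CCACNAG that overlaps it, was in those of Ifi207 and Ifi211 and in 2.68% of all. The promoters of Ifi207 and Ifi211 are 85.9% identical, so their matches may not be independent. These are matches of letters in short windows and not measured sites, and no peak was placed on them.

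The WT lists held more peaks in the window than the Cgas_KO lists, and covered more of it. In replicates 1, 2 and 3 there were 12, 13 and 11 peaks in WT and 6, 6 and 7 in Cgas_KO. The means were 12 ± 1 and 6.33 ± 0.577 (SD, n = 3), and the genotypes did not overlap. The genome-wide share of bins with counts split in this way was not determined. The WT excess went against the whole lists, which held 27356, 28926 and 27128 peaks in WT and 29412, 28052 and 31707 in Cgas_KO. Peaks covered 48.5, 51.4 and 64.1 kb of the window in WT and 20.2, 23.0 and 19.9 kb in Cgas_KO. This was 5.47% ± 0.830 against 2.11% ± 0.171 (SD, n = 3), a ratio of 2.60, and again the lists of both genotypes stood apart. Of 2571 bins of 1 Mb laid over all chromosomes on the same grid, 8.40% showed every WT list above every Cgas_KO list. The window's difference of -3.36 percentage points (Cgas_KO minus WT) was exceeded in that direction by 11 of the 2571. It was selected for that difference, so this place is no separate finding.

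**Figure D1:**
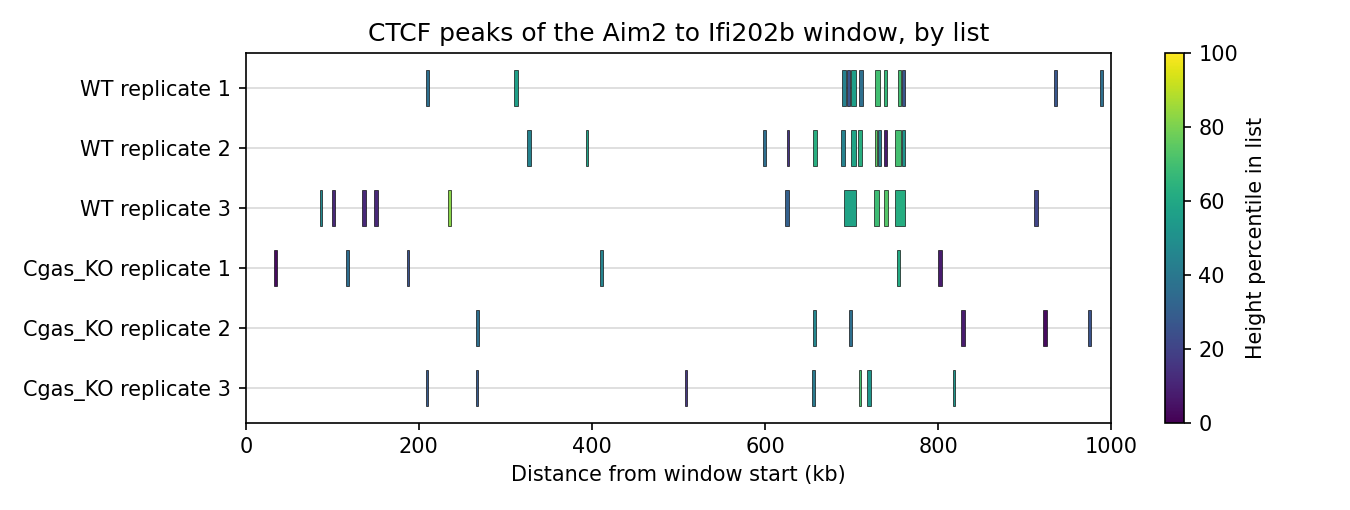
Peaks of the window as boxes drawn to scale along the distance from the window's start in kb, 1 line per list, coloured by height percentile within the list. The 3 WT lists hold 20 peaks in a span of 70.4 kb near 700 kb, where the 3 Cgas_KO lists hold 4.

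Most of the difference lay in a single span. Bases covered in all 3 WT lists formed 7 runs, and all 7 fell between chr1:173740887-173811301, a span of 70.4 kb drawn after the lists had been seen. WT peaks covered 45.6%, 44.5% and 52.1% of it, and Cgas_KO peaks 4.03%, 5.27% and 8.28%. It was touched by 8, 8 and 4 WT peaks and by 1, 1 and 2 Cgas_KO peaks. WT replicate 3 had fewer but longer peaks there, up to 14314 bp. Outside the span the lists were alike in number, with 4, 5 and 7 peaks in WT and 5 in each Cgas_KO list. They covered 21.3 ± 5.60 kb there in WT and 16.9 ± 2.63 kb in Cgas_KO (SD, n = 3).

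By bins of 100 kb from the window's start, the eighth stood out. In this bin, chr1:173750001-173850000, peaks covered 26.7%, 29.5% and 27.9% in WT and 2.83%, 0.328% and 5.83% in Cgas_KO. Its difference of -25.0 points ranked 5 of 24481 bins with any peak, counting from the largest WT excess. The bin before it was covered at 7.53%, 13.0% and 13.1% in WT and 0%, 7.37% and 3.53% in Cgas_KO, where WT replicate 1 was barely above Cgas_KO replicate 2. The bin after it held no WT peak, while the Cgas_KO lists covered 4.34%, 3.97% and 2.23%. In the remaining 7 of the 10 bins the lists of both genotypes overlapped. Thus 2 of the 10 bins had all WT lists above all Cgas_KO lists, against 3.82% of bins over the genome. In 1 the order was reversed, against 3.37%. The eighth bin holds the WT excess that led to the window's choice, and the WT-rich span begins in the seventh. Neither the count of 2 nor the rank of the eighth bin is therefore a separate finding. With the grid shifted by 50 kb, 1 bin had WT above and 0 had Cgas_KO above, against 3.8% and 3.37% of that grid over the genome.

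**Figure D2:**
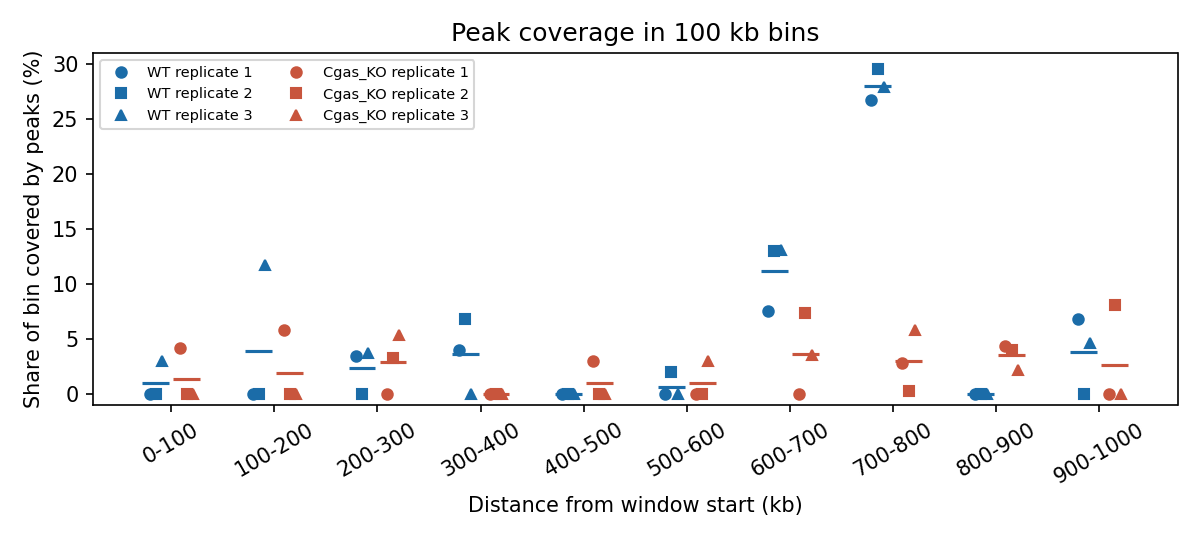
Share of each 100 kb bin covered by peaks, in percent, by distance from the window's start in kb. Symbols are the 3 lists of each genotype and bars their means. The bin from 700 to 800 kb is covered at 26.7% to 29.5% in WT and at most 5.83% in Cgas_KO.

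Where peaks overlapped by at least 1 bp, across lists, they were joined into 1 region, which gave 32 regions in the window. Of these, 23 (71.9%) were in 1 list only, near the 69.9% of all 94951 regions. No region of the window was in 5 or 6 lists, against 2.97% and 5.16% of all regions. Among 32 regions such shares amount to few, so this absence is only a description. WT peaks alone made up 15 regions, Cgas_KO peaks alone 12, and 5 held both. Regions in 1 WT list alone were 37.5% of the window's, against 31.8% of all regions. Those in 1 Cgas_KO list alone were 34.4%, against 38.1%. For 2 WT lists alone the shares were 3.12% and 2.64%, and for 2 Cgas_KO lists alone 3.12% and 2.93%. In all 3 WT lists and no Cgas_KO list were 2 of the 32 regions, against 0.377% of all regions. Both of these WT regions lay in the eighth bin, so their number is no separate finding. In all 3 Cgas_KO lists and no WT list there were 0, against 0.33%.

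The former were chr1:173775637-173784485 and chr1:173787166-173792390. In chr1:173775637-173784485, 8849 bp wide, the tallest peak of each WT list stood at height percentile 69.6, 75.2 and 68.5 (71.1 ± 3.56, SD, n = 3). The height percentile is the rank of a peak's maximum signal within its list, in percent, with tied peaks at their mean rank. WT replicate 2 had split it into a pair of peaks, the others had a single peak each. Of all regions of the window called in more than 1 list, it was the tallest in percentile, and its 3 WT values lay close together. In chr1:173787166-173792390, 5225 bp wide, the percentiles were 66.7, 7.07 and 73.4. The middle value belongs to WT replicate 2, whose peak there had nearly the lowest total signal of its list, at percentile 0.0207. Its presence in all 3 WT lists thus rests on a peak at the edge of what was listed.

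Called in 4 lists, the most in the window, were 2 regions (6.25%, against 3.47% of all regions). Both lie in the WT-rich span. It was drawn from bases covered in all 3 WT lists, so their place there is no separate finding. The first, chr1:173737469-173755501, spans 18033 bp and chains 7 peaks. Its tallest peaks stood at percentiles 56.0, 57.9 and 57.9 in WT and at 36.2 in Cgas_KO replicate 2. The second, chr1:173799969-173811698, spans 11730 bp and chains 6 peaks. Here the percentiles were 69.6, 70.0 and 61.9 in WT and 60.6 in Cgas_KO replicate 1. In both regions the lone Cgas_KO peak ranked below the tallest peak of each WT list. A further 2 regions were in 3 lists, of both genotypes. Together with the 2 in WT alone, regions in 3 lists were 12.5% of the window's, against 5.4% of all. One was chr1:173757577-173763030, at percentiles 36.2 and 62.8 in WT replicates 1 and 2 and 70.1 in Cgas_KO replicate 3. Here the Cgas_KO peak ranked above both WT peaks. These peaks were 12, 15 and 13 steps high. A step is the smallest unit of maximum signal in a list, and its value differs between lists. The other was chr1:173704242-173709830, at percentiles 62.8 in WT replicate 2 and 46.1 and 41.0 in Cgas_KO replicates 2 and 3 (15, 13 and 10 steps). The latter lies just left of the span and is where Cgas_KO lists overlapped most, by 2698 bp in 2 lists.

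The region with the highest mean percentile was chr1:173283463-173287191. It was called in WT replicate 3 alone, at percentile 82.3 and 25 steps, the tallest peak of the window. At chr1:173316252-173319543 peaks were called in Cgas_KO replicates 2 and 3 and in no WT list, at percentiles 36.2 and 28.1. Called in WT replicates 2 and 3 was chr1:173673506-173677776, at 15.3 and 30.3. WT replicate 1 and Cgas_KO replicate 3 met at chr1:173257757-173261252, at 36.2 and 28.1. All these were of low or middling height in their lists except the first.

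Within a merged region the maxima did not sit at 1 point. They lay 2380 bp apart across the 3 WT lists in chr1:173775637-173784485 and 1382 bp in chr1:173787166-173792390. In the regions of 4 lists they lay 4498 and 3624 bp apart. The median over all regions in 3 lists was 1220 bp, and 1040 bp for those in 4. With regions built from midpoints of the maximum-signal intervals instead, joined when under 200 bp apart, 0 regions of the window were in all 3 WT lists and no Cgas_KO list.

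At single bases, 148 kb of the window was covered in at least 1 list. All 3 WT lists covered 19.8 kb, of which 17.1 kb was free of Cgas_KO peaks, whereas no base was covered in all 3 Cgas_KO lists. Pairs of WT lists shared 25.9 to 26.9 kb, a Jaccard index (shared length over length covered by either) of 0.293 to 0.369. The Jaccard index of these pairs over the genome was 0.171 to 0.176. Pairs of Cgas_KO lists shared 0 to 5.27 kb, with indices of 0, 0 and 0.14, against 0.142 to 0.157 over the genome. Pairs of different genotype had indices of 0 to 0.0726 in the window and 0.146 to 0.163 over the genome. In the window, which was picked for its WT coverage, the WT lists were thus more alike than over all chromosomes. Pairs of different genotype were less alike, as was Cgas_KO replicate 1 with either other Cgas_KO list. Cgas_KO replicates 2 and 3 were nearly unchanged, at 0.14 in the window and 0.142 over the genome.

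None of the 55 peaks was among the tallest 10% of its list. WT peaks lay at height percentiles of 7.07 to 82.3 with a median of 45.7, and 17 of 36 were above the middle of their list. Cgas_KO peaks lay at 2.79 to 70.1 with a median of 35.2, and 4 of 19 were above it. These figures pool the peaks of 3 lists. The median percentile per list was 40.2, 51.9 and 46.9 in WT and 30.1, 31.0 and 41.0 in Cgas_KO, so the genotypes overlapped. In steps, WT peaks were 8 to 25 high and Cgas_KO peaks 8 to 15, where the median over a whole list was 11 to 14. Widths ran from 2401 to 14314 bp in WT, with a median of 3995 bp, and from 1913 to 5121 bp in Cgas_KO, with a median of 3221 bp. Per list the median widths were 3596.5, 3893 and 4318 bp in WT and 3133, 3842 and 2761 bp in Cgas_KO, which overlapped too. The 20 WT peaks of the span differed from the 16 other WT peaks in total signal more than in height. Their median percentile of total signal was 79.5, with 8 above 90, and the others' was 44.8, with 0 above 90. In height the medians were 57.9 and 35.9, and in width 4466 and 3670 bp. The span was drawn from bases that all 3 WT lists covered. This contrast of peaks pooled over lists is thus not independent of how the span was chosen. The 4 Cgas_KO peaks in the span reached percentiles of 60.6, 36.2, 70.1 and 52.7 in height, and of 5.59 to 81.7 in total signal.

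**Figure D3:**
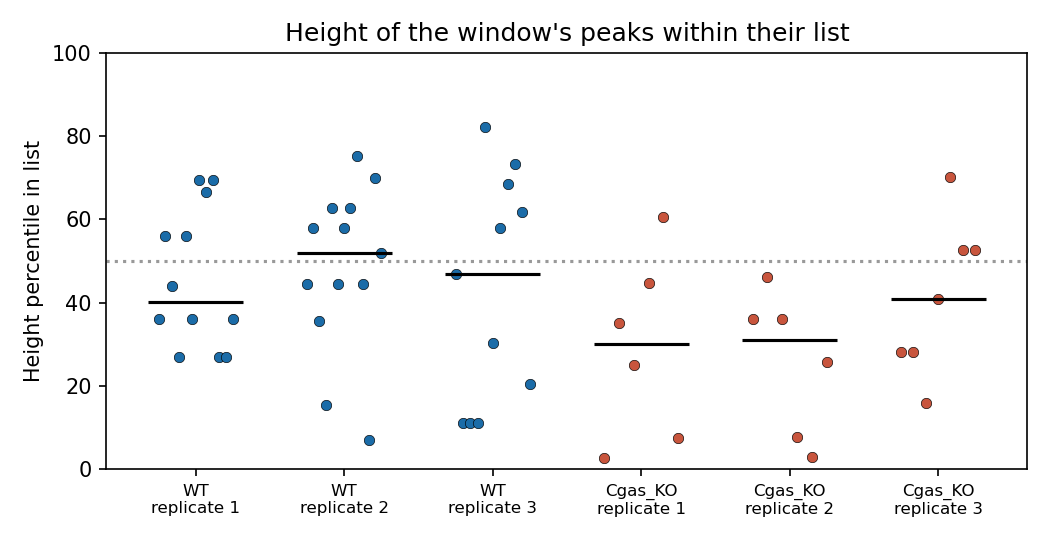
Height percentile within its list of each peak of the window, in order of position, with the median of each list as a bar. The dotted line is the middle of a list. The highest point, 82.3, is in WT replicate 3, and 1, 0 and 3 peaks of the Cgas_KO lists lie above the line.

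Over all 6 lists, the window was set beside the rest of chromosome 1. Peak density was 9.17 ± 3.19 per Mb in the window and 10 ± 0.738 elsewhere on the chromosome (SD, n = 6), a difference of -0.837 ± 3.55. It was above 0 in the 3 WT lists and below 0 in the 3 Cgas_KO lists, and since peaks in the window led to its choice, it is a description. Width and height were tested over both genotypes together, on the same peaks, with p-values adjusted over 5 comparisons, density among them. Peaks that led to the window's choice are among those tested. The p-values for width and height are therefore not independent of that choice and serve as description. The median width exceeded that elsewhere by 291 ± 342 bp (SD), in 5 of 6 lists (two-sided exact sign-flip permutation test, p = 0.0938, Benjamini-Hochberg adjusted 0.208). The median height percentile was lower by a mean difference of -7.46 ± 9.10 (SD), below in 4 of 6 lists and above in 1 (exact permutation p = 0.125, adjusted 0.208). By total signal in place of height the difference turned to 4.31 (exact permutation p = 0.625), and among the top 50% of peaks by total signal it was -18.0 (exact permutation p = 0.031). The smallest p this test can give with 6 lists is 0.031.

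The 1 Mb on either side did not enter the choice of the window and could be tested between genotypes. To the left, peaks covered 5.65%, 6.01% and 6.39% in WT and 5.99%, 7.40% and 5.92% in Cgas_KO. The difference of 0.422 points was within the spread (two-sided exact permutation test, p = 0.7, adjusted 0.7). Peaks there numbered 15, 17 and 16 in WT and 20, 20 and 24 in Cgas_KO, so the counts did not overlap while the coverage did. The genome-wide share of bins with counts split in this way was not determined. To the right, peaks covered 0.605%, 0.537% and 0.616% in WT and 1.93%, 2.67% and 3.81% in Cgas_KO. All 3 Cgas_KO lists were above all WT lists, by 2.22 points on average (exact permutation p = 0.1, adjusted 0.208). Among the top 50% of peaks by total signal the difference was 0.922 points (exact permutation p = 0.2). With 3 lists against 3, p cannot fall below 0.1. Genome-wide, 3.85% of 1 Mb bins had all Cgas_KO lists above all WT lists. On this side there were 1, 2 and 2 peaks in WT and 6, 6 and 13 in Cgas_KO. The excess of WT coverage in the window was therefore bounded by a flank with no such excess on the left and by the opposite order on the right. Whether the window differed from its flanks in the genotype difference was not tested, since the window was picked on it.

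**Figure D4:**
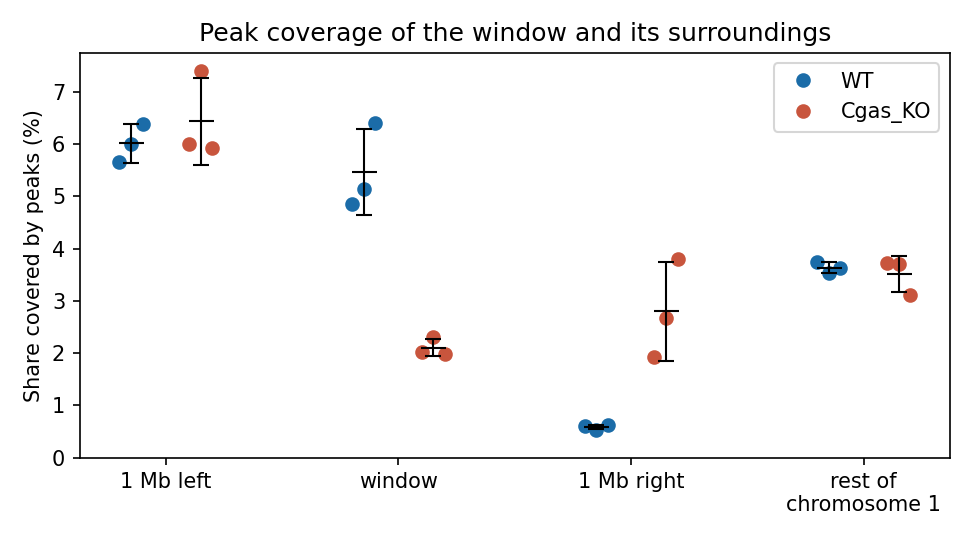
Share covered by peaks, in percent, for the 1 Mb left of the window, the window, the 1 Mb right of it and the rest of chromosome 1. Points are lists, with mean and SD (n = 3) in black. The window is at 5.47% in WT and 2.11% in Cgas_KO, and the right side at 0.586% and 2.80%.

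The rest of chromosome 1 was covered at 3.63% ± 0.105 in WT and 3.51% ± 0.340 in Cgas_KO (SD, n = 3), so the window lay above it in WT and below it in Cgas_KO. The value of a step in signal units was 0.190, 0.212 and 0.195 in WT and 0.117, 0.117 and 0.120 in Cgas_KO. Depth is unknown, and this gap in the signal scale moves with genotype. Its part in the coverage difference was not tested. Any difference in the DNA sequence of this cluster between the WT and Cgas_KO animals would run along with the genotype labels. Strain haplotype and CTCF binding cannot be told apart in these lists, because no reads or variants were analysed here.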

How the data were processed

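The 6 CUT&RUN peak lists, 1 per library, were grouped by labelled genotype into 3 WT and 3 Cgas_KO. Reads were processed with Bowtie2 and SEACR 1.3, per the submitters' processing notes, which list both mm10 and mm39. Sequence names in the lists are those of mm39. Each deposited peak carries the authors' total signal and maximum signal. They were only ranked within a list or counted in steps. Maximum signal was a whole multiple of 1 step within 0.01 step for 100% of peaks under 200 steps. The sources used here give no threshold, control or scaling. Since depth is unknown, no interval for counting error is given, and 3 lists per genotype limit the precision.

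Peaks overlapping the window by 1 bp were members. Coverage, bins, merged regions and percentiles (ties at their mean rank) were computed with Python 3.11.15, numpy 2.4.6 and pandas 2.3.3, promoters aligned with Biopython 1.88 and figures drawn with matplotlib 3.10.9. Merging and bins were tested on simulated lists, and both exact permutation tests on fixed values with a known p. Named in full were regions in at least 4 lists, those in all lists of 1 genotype and none of the other, and that of highest mean percentile. Other regions named were chosen after their values were seen. The window and lists of genes were chosen with earlier results of these data known. Alternatives were the top 50% of each list, lists of equal length, other merging, bins and grids, total signal, all autosomes, a replicate block, and leaving out each list.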

Additional observations from a re-analysis of the deposited data

How the results depend on the processing

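The excess of peaks and of coverage in WT kept its direction in every alternative run for them. All but the run without the eighth bin keep the bin that led to the window's choice. That direction is therefore no separate finding. The difference in peaks (Cgas_KO minus WT) was -6.67 both in the top 50% of each list and in lists of equal length, and -6.17 to -5.17 with a list left out. Without the eighth bin, chosen after the data were examined, it was -1.33, and the difference in coverage -0.952 points. With a list left out coverage differed by -3.67 to -2.89 points. The largest WT excess of a bin was -21.2 points with the grid shifted by 50 kb, -32.5 in bins of 50 kb and -26.4 to -23.7 with a list left out. Bins with WT above numbered 1 on the shifted grid and 2 to 3 with a list left out. Bins with Cgas_KO above numbered 0 on that grid and in the top 50%, and 1 with any list left out. Regions in every WT list alone numbered 0 by midpoints and 2 to 4 with a list left out (4 without WT replicate 3), those in every Cgas_KO list alone 0 to 1 (1 without Cgas_KO replicate 1). Leaving out a list eases this requirement. All regions numbered 16 in the top 50% and 53 by midpoints. Density against the rest of chromosome 1 turned to 0.509 in the top 50%, and was -3.71 without the eighth bin, whose removal takes out the peaks that led to the window's choice. It was -1.59 to -0.129 with a list left out. Height percentile gave -18.0 in the top 50%, 4.31 by total signal and -10.4 to -5.94 with a list left out. Without the eighth bin it was -17.6, and against all autosomes -12.5. The left flank turned to -0.267 in the top 50% and to -0.0599 without Cgas_KO replicate 2, at -0.0599 to 0.68 over all lists left out. The right flank was at 0.922 in the top 50% and at 1.71 to 2.65 with a list left out. Width differed by 397 bp in the top 50% and by 206 to 377 bp with a list left out. The causes were not tested.

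Replicate numbers are shared between genotypes, but same-numbered lists did not deviate together in coverage of 1 Mb bins (r = 0.0209, -0.06 and -0.0512), and 0 lists correlated best with their own number. With the replicate number as a block, the left flank gave 0.422 (exact sign-flip permutation p = 0.75) and the right 2.22 (exact sign-flip permutation p = 0.25, the smallest possible).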

Other observations

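Parts of the cluster held no peak in any list. The longest such stretch was chr1:173462826-173557279, 94.5 kb, and 85.2% of the window was free of peaks in all 6 lists. The longest stretch without a peak was 375, 325 and 386 kb in the WT lists and 340, 386 and 238 kb in the Cgas_KO lists. Left of the window, the nearest peak ended 587, 233 and 232 kb away in WT and 365, 196 and 81.1 kb away in Cgas_KO. To its right, the nearest peak began 623, 569 and 243 kb away in WT and 64.1, 109 and 58.3 kb away in Cgas_KO. On the right the distances of the genotypes did not overlap, which was noticed after the values were seen and not tested. How often distances split in this way elsewhere was not determined.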
